A study of Rattus norvegicus with 32 samples.

Results

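The genes described here encode subunits of respiratory complex I, the NADH:ubiquinone oxidoreductase of the inner mitochondrial membrane. They were chosen by gene symbol from a list of 35 nuclear genes, of which 32 were among the 17216 gene rows of the counted libraries. Ndufa3, Ndufa13 and Ndufc1 were not found under these symbols. The libraries hold polyadenylated RNA of single hippocampal neurons from wildtype Sprague Dawley rats, obtained at embryonic day 18 and kept in culture for 15 days. Each of 16 neurons, labelled pyramidal, gave a soma sample and a dendrite sample, aspirated with separate micropipettes, so that there were 16 soma and 16 dendrite libraries in pairs. All samples went through 3 rounds of amplification by in vitro transcription (aRNA). The cells came from several cultures and days, and no treatment or mutant was compared.

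Complex I takes electrons from NADH, passes them over a flavin and a chain of iron-sulfur clusters to ubiquinone, and pumps protons across the inner membrane. It is L-shaped. The matrix arm holds the core subunits that bind NADH, the flavin and the iron-sulfur clusters, all of them nuclear-encoded, and the core subunits of the membrane arm are encoded by mitochondrial DNA. Accessory subunits, all nuclear-encoded, surround both arms and are needed for assembly and stability. Neurons rely on oxidative phosphorylation, and mitochondria are found both in their cell bodies and in their dendrites. Of the 32 genes, 6 encode core subunits of the matrix arm, 9 encode accessory subunits of that arm and 16 encode accessory subunits of the membrane arm. The remaining gene, Ndufa4, carries a complex I name, but its product is now regarded as a subunit of complex IV. Of the mitochondrially encoded complex I genes, 0 were among the rows, so nothing is said of them.

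Nuclear genes of the respiratory chain are known targets of NRF1 and of GABP, a factor of the ETS family, so their promoters are shown by the motifs of these factors. RefSeq (assembly GRCr8) gave a promoter of 300 bases, 250 before and 50 after the start site, for 30 of the 32 genes, all but Ndufa8 and Ndufb9. Both strands were searched, and overlapping matches were counted. The NRF1 letters GCGCATGC were in 2 of the 30 promoters (6.67%), against 6.42% of the 3990 promoters of genes tested below and 3.11% of the 21849 promoters of all protein-coding genes. The longer NRF1 palindrome, which holds these letters and reads the same on both strands, was in 1 promoter (3.33%), against 2.53% and 1.08%. The ETS motif CCGGAAG was in 6 promoters (20%), against 21.6% and 10.7%. The TATA box letters TATAAA were in 3 promoters (10%), against 6.04% and 13%. For these motifs the complex I promoters thus stood at shares within a few genes of those in other genes expressed in these cells. The median promoter had 20 CpG sites, against 23 in the promoters of tested genes and 11 in all. Below are the 120 bases before the start site of the promoter with the NRF1 palindrome and of one with the ETS motif, with the matches in capitals. Ndufa11, a membrane-arm subunit, lies at chr9:1637494-1637613 on the plus strand of GRCr8, with overlapping palindromes that start 97 and 91 bases before the start site. Ndufb7, a membrane-arm subunit on the intermembrane side, lies at chr19:41477292-41477411 on the minus strand, with its match 16 bases before the start site. A match of letters is a description and does not show binding.
Ndufa11: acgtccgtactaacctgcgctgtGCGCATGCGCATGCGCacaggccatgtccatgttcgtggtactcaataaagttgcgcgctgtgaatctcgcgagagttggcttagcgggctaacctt
Ndufb7: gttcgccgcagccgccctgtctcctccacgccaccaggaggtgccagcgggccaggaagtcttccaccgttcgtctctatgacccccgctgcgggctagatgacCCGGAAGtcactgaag

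Depth and identity differed between libraries. Soma libraries held between 878125 and 24721811 gene counts and dendrite libraries between 229149 and 24439768, and the dendrite library was the shallower in 14 of 16 neurons. Levels are given as counts scaled to 1000000 gene counts per library (CPM), a share of each library and not an amount of RNA. The pyramidal marker gene Neurod6 reached 10 counts in all 32 libraries, whereas Slc17a7, the vesicular glutamate transporter gene of these cells, reached that count in 5 soma and 2 dendrite libraries. The summed level of 7 inhibitory neuron markers lay between 0 and 13307 CPM in soma and between 0 and 3132 CPM in dendrites, with the highest values in the soma of neuron 8 and the dendrites of neuron 7. Of 10 astrocyte markers, 10 were among the rows, and their sum ran from 27.4 to 690 CPM in soma and from 24.8 to 2013 CPM in dendrites, higher in dendrites in 11 of 16 neurons. Mt3, which neurons can also express, had 10 or more counts in 14 soma and 16 dendrite libraries, Aldoc in 12 and 13, and Sparcl1 in 13 and 12. Apoe reached that count in 7 and 10, Slc1a3 in 4 and 6, Aqp4 and Gja1 in 3 and 7 each, and Gfap in 2 and 5. Slc1a2 was at 0 in 16 and 15, and Aldh1l1 in 15 and 14. All 6 microglia markers were at 0 in every soma library, with a summed maximum of 0.698 CPM in dendrites. Endothelial, mural and fibroblast markers summed to at most 600 CPM in soma and 795 CPM in dendrites. Among them Sparc reached 10 counts in 10 soma and 12 dendrite libraries and Dcn in 9 and 8, whereas Cldn5 was at 0 throughout. The highest sums of oligodendrocyte markers were 90.8 and 75.6 CPM. Those of dividing progenitor markers, of which Pcna reached 10 counts in 13 and 10 libraries, were 666 and 511 CPM. Over all genes tested, the centred profile of the soma of neuron 7 correlated more with the dendrites of neuron 9 than with its own (Spearman 0.26 against 0.09), that of neuron 9 more with the dendrites of neuron 7 (0.17 against 0.07), and that of neuron 8 more with the dendrites of neuron 9 (0.23 against 0.19), so the pairing of these 3 goes in part against their labels. In all, 9 of 16 somata correlated most with the dendrites of another neuron, and the soma of neuron 11 and the dendrites of neuron 14 were each other's best match (0.10, against own values of -0.05 and 0.01), so within-neuron differences assume that the labelled pairs are right. The dendrites of neuron 20 stood apart from the other dendrites, with 15.3 CPM of pyramidal markers against 5502 in its soma, and neuron 25 was the shallowest. Main results are therefore also given without neurons 7, 8 and 9 and without neurons 20 and 25. Neurons 11 and 14 were left out only singly.

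Transcripts of complex I were present in every soma and in every dendrite sample. Together the 32 genes made up 7144 ± 1776 CPM of a soma library and 6677 ± 1716 CPM of a dendrite library (SD, n = 16 each). In soma the sum ran from 4026 CPM in neuron 22 over a median of 6956 to 10946 CPM in neuron 11. In dendrites it ran from 5036 CPM in neuron 23 over a median of 5895 to 10592 CPM in neuron 7. The ranges overlapped almost wholly, and the share of all gene counts was between 0.403% and 1.09% in soma and between 0.504% and 1.06% in dendrites. Within neurons the difference, dendrites minus soma, was -467 ± 2723 CPM (SD), with the dendrites higher in 7 of 16, so the mean difference was well within the spread between neurons. By the labelled pairs, the differences of largest size were in neurons 7, 9, 11 and 25. Dendrites were higher by 4821 CPM in neuron 7 and lower in neurons 9, 11 and 25 (-4355, -5132 and -3976 CPM). The profiles went against the labelled pairing for neurons 7, 9 and 11, as given above. The soma of neuron 9 (9815 CPM) and the dendrites of neuron 7 (10592 CPM) were each other's best match. So were the soma of neuron 7 (5771 CPM) and the dendrites of neuron 9 (5460 CPM). Whether labels were swapped was not tested. Without neurons 7, 8 and 9 the mean difference was -848 CPM, and without neurons 20 and 25 it was -171 CPM. With 1 neuron left out at a time it ran from -820 CPM (without neuron 7) to -156 CPM (without neuron 11). With library sizes scaled by TMM, a method that corrects for library composition, it turned to 1317 ± 8479 CPM (SD). That sign rested on the dendrites of neuron 20, whose scaling factor was 0.159, and without that neuron the difference was -714 CPM. Without Ndufa4 the sum, by library totals, was 6122 ± 1662 CPM in soma and 5746 ± 1630 CPM in dendrites. The difference was then -376 ± 2605 CPM (SD), with the dendrites higher in 6 of 16 neurons. Counts here are not divided by transcript length, so the sum weights genes by their counts.

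**Figure D1:**
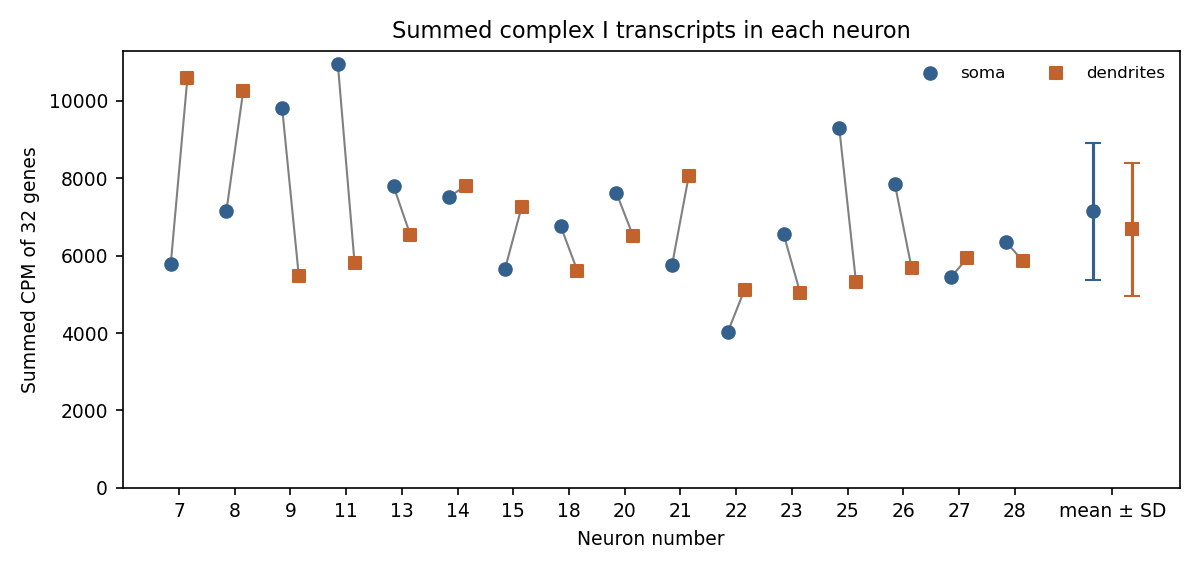
Summed level of the 32 complex I genes (CPM, vertical axis) in the soma and dendrites of each neuron, with a line joining the samples of 1 neuron and the mean ± SD of 16 neurons beside them. The means of 7144 and 6677 CPM lie within each other's SD, and lines run both up and down.

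Single genes varied far more between neurons than their sum did, which a sum over genes of little relation to each other brings about by arithmetic. The coefficient of variation of the sum (SD over mean) was 24.9% in soma and 25.7% in dendrites, and its highest value was 2.72 and 2.10 times its lowest. For single genes the median coefficient of variation was 85.8% in soma, from 47.4% for Ndufb4 to 144% for Ndufs8. In dendrites it was 89.6%, from 48.6% for Ndufa4 to 183% for Ndufb10. The SD of a gene's log2 level after TMM scaling had a median of 2.24 in soma and 2.10 in dendrites. Over all genes tested it was 3.46 and 3.22, a comparison not matched for level. Which gene led also changed from cell to cell: Ndufa4 had the most counts of the 32 in 13 libraries, Ndufb3 in 13, Ndufv2 in 2, and Ndufb2, Ndufb6, Ndufb9 and Ndufv1 in 1 each. The extreme was neuron 20, where Ndufb3 alone gave 48.4% of complex I counts in soma and 53.8% in dendrites. Over the 496 pairs of these genes, the median Spearman correlation across 16 neurons was 0.043 in soma and 0.046 in dendrites, against 0.044 and 0.053 over all pairs of tested genes. The points of each such correlation share their libraries and depths, and these values are descriptions. The median over pairs of complex I genes was thus about that over pairs of tested genes at large.

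**Figure D2:**
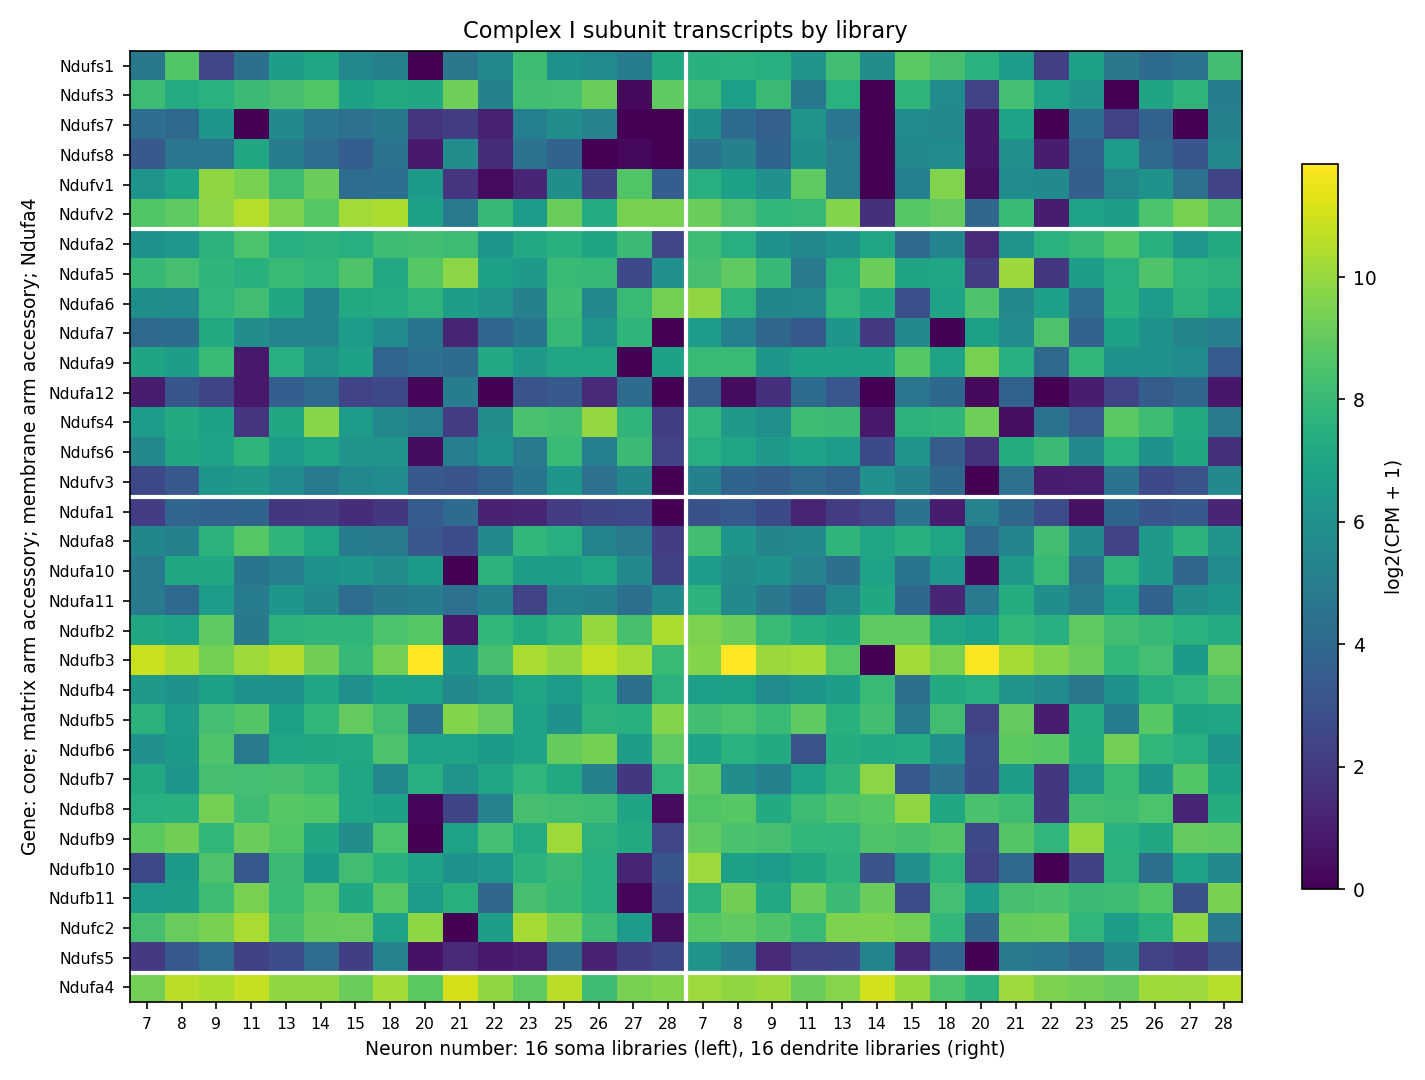
Level of each complex I gene (rows, grouped by role) in each library (columns, soma then dendrites), as log2(CPM + 1) by colour. Rows such as Ndufa4 stay high throughout, while Ndufs7, Ndufs8 and Ndufa12 fall to 0 in scattered libraries.

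Not every transcript was caught in every sample. In 16 of the 32 genes at least 1 count was present in all 32 libraries, and in 5 of them (Ndufa4, Ndufa6, Ndufa11, Ndufb4 and Ndufb6) at least 10 counts. Of the 1024 values, 28 were 0. All 32 genes reached 10 counts in 8 soma and 5 dendrite libraries. A soma library held 30.1 ± 2.6 of the genes at 10 or more counts (range 24 to 32) and a dendrite library 28.9 ± 3.7 (range 20 to 32), a mean difference of -1.12 with an SD of 3.77. The Spearman correlation of this number with the gene counts was 0.62 across soma and 0.73 across dendrite libraries. With the number of genes of any kind at 10 or more counts it was 0.81 and 0.79, all as descriptions. The dendrites of neuron 22, with 20 genes, had 1071293 gene counts, against 21863479 in the soma of that neuron. At a similar depth (1155585) the dendrites of neuron 26 held 29 genes, and at 12332484 those of neuron 14 held 25. The cause was not tested. Without neuron 25 the difference was -0.80 ± 3.67 (SD, n = 15), and after thinning each of these libraries to 1071293 counts it was 0.60 ± 6.05 at the same minimum of 10 counts. At a minimum of 5 counts it was -0.53 ± 3.58 at full depth and 0.80 ± 4.93 after thinning. At a minimum of 1 count it was 0.20 ± 2.43 at full depth and 0.47 ± 3.23 after thinning. In these 15 neurons thinning alone thus turned its sign at minima of 5 and 10 counts but not at 1 count. Each value was within the spread between neurons.

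Genes at 0 were most numerous in a soma and a dendrite library of different neurons. The soma of neuron 28 had 6 genes at 0 (Ndufa1, Ndufa7, Ndufa12, Ndufs7, Ndufs8 and Ndufv3) at 7933999 gene counts. The dendrites of neuron 14 had 6 at 0 (Ndufa12, Ndufb3, Ndufs3, Ndufs7, Ndufs8 and Ndufv1) at 12332484 gene counts. There 3 counts, set as the upper limit for a count of 0 and not a hard bound, are 0.243 CPM. These 2 libraries also had few genes of any kind at 10 or more counts, 2974 and 3012. Against that limit Ndufb3 was at least 2564-fold lower in the dendrites of neuron 14 than in its soma, where it stood at 624 CPM from 14189 counts. Ndufv1 was at least 2411-fold lower there, against 587 CPM, and Ndufs3 at least 1630-fold lower, against 397 CPM. The reverse occurred in neuron 21, where Ndufc2 was at 0 in soma and at 527 CPM in dendrites, so that the soma was at least 1610-fold lower. These folds compare single samples, rest on the pairing as labelled, which the profiles did not bear out for neuron 14, and cover counting error only, since amplified reads are not independent molecules.

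The comparison of dendrites with the soma of the same neuron asked whether any subunit's mRNA differed in relative abundance between the compartments. With edgeR's quasi-likelihood test, fitted over 4916 genes with the neuron as a block, 0 of the 32 complex I genes passed an adjusted p of 0.05. The same was true of all genes tested (0% called). At an unadjusted p of 0.05, 0 of the 32 genes passed, against 129 of 4916 genes (2.62%). The log2 fold change, dendrites over soma, was positive for 16 and negative for 16, with a median of 0.01, against a median of 0.13 over all genes tested, of which 2696 were positive and 2220 negative. The standard error (SE) of a fold change had a median of 0.91 over 31 of the genes, from 0.40 for Ndufa4 to 1.36 for Ndufv1, against 1.54 over all genes (none is given where the log2 fold change is within 0.01 of 0, as for Ndufa7), so only changes of several fold could have been seen in single genes. The DESeq2 Wald test called 403 of the 4916 genes (8.2%) and 0 of the 32. Limma-voom and a sign-flip test on the 16 paired differences called 0 genes in all (0% each). At an unadjusted p of 0.05, DESeq2 had Ndufs3 alone among the 32 (20.6% of all genes), and limma-voom (4.6%) and the sign-flip permutation test (5.37%) each had Ndufv2 alone.

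**Figure D3:**
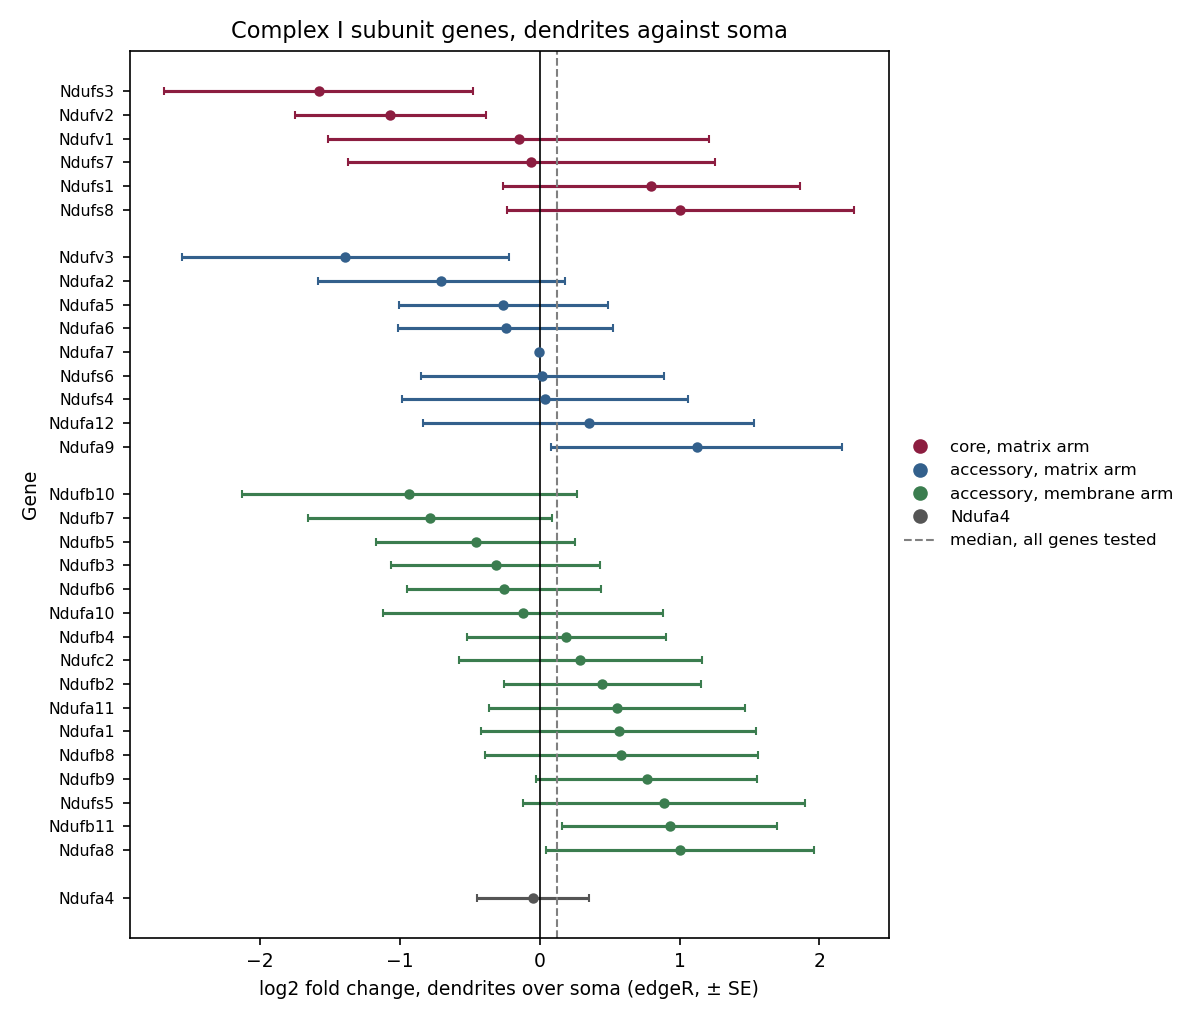
Log2 fold change of each complex I gene, dendrites over soma, with its SE (edgeR, 16 neurons), grouped by role; the dashed line is the median of all 4916 genes tested. The 32 values scatter on both sides of 0, and the lowest is Ndufs3.

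Among the core subunits of the matrix arm, 2 of 6 had a positive and 4 a negative fold change, with a median of -0.10. Ndufv2, which binds an iron-sulfur cluster beside the flavin, ranged in soma from 28.4 CPM in neuron 21 over a median of 519 to 1497 CPM in neuron 11. In dendrites it ranged from 0.933 CPM in neuron 22 over a median of 306 to 790 CPM in neuron 13. The groups overlapped, 3 dendrite samples (neurons 14, 20 and 22) lay under the lowest soma sample, and dendrites were higher in 6 of 16 neurons. Its log2 fold change was -1.07 ± 0.68 (SE), the smallest unadjusted p among the 32 genes (0.131, edgeR adjusted p = 0.999). Ndufv1, which binds NADH and the flavin, ran from 0.274 over a median of 64.0 to 932 CPM in soma (highest in neuron 9) and from 0 over 45.6 to 778 CPM in dendrites (0 in neuron 14, highest in neuron 18). High and low values occurred in both compartments, and the log2 fold change was -0.15 ± 1.36.

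Ndufs3, a core subunit of the part that reduces ubiquinone, ran in soma from 0.180 CPM in neuron 27 over a median of 273 to 608 CPM in neuron 21. In dendrites it was at 0 in neurons 14 and 25, with a median of 107 and a maximum of 312 CPM, also in neuron 21. Dendrites were higher in 5 of 16 neurons and the groups overlapped. The log2 fold change was -1.58 ± 1.10 (unadjusted p = 0.164, edgeR adjusted p = 0.999). Ndufs1, the largest core subunit, which carries several of the iron-sulfur clusters, leaned the other way: it ran from 0 over a median of 46.4 to 395 CPM in soma and from 3.73 over 140 to 444 CPM in dendrites. It was higher in dendrites in 9 of 16 neurons, at a log2 fold change of 0.80 ± 1.06.

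Ndufs7 and Ndufs8, which carry the iron-sulfur clusters that lead to ubiquinone, had low counts and were among the genes most often at 0. Ndufs7 was at 0 in 3 soma libraries (neurons 11, 27 and 28) and in 3 dendrite libraries (neurons 14, 22 and 27), with medians of 19.7 and 17.9 CPM and maxima of 75.0 and 117 CPM. Neuron 27 alone lacked it in both. Ndufs8 ran from 0 over a median of 15.2 to 133 CPM in soma and from 0 over 27.9 to 91.6 CPM in dendrites, with the dendrites higher in 10 of 16 neurons. Their log2 fold changes were -0.06 ± 1.31 and 1.01 ± 1.24, within their errors.

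**Figure D4:**
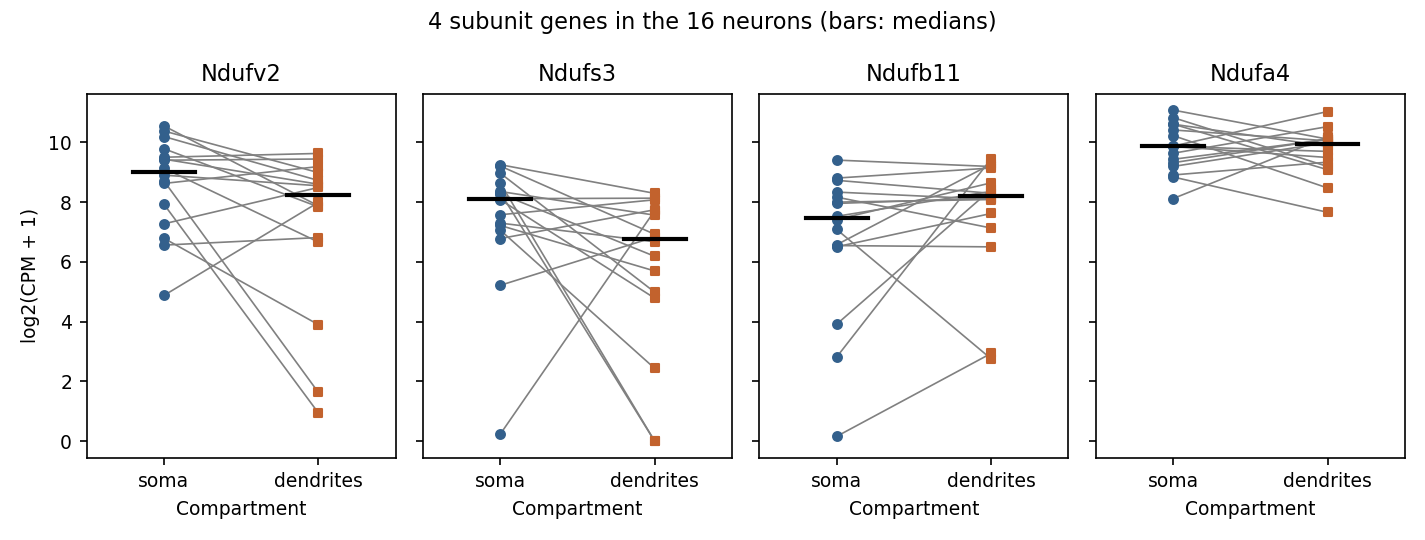
Level of Ndufv2, Ndufs3, Ndufb11 and Ndufa4 in soma and dendrites as log2(CPM + 1), 1 line per neuron, with bars at the medians. Ndufv2 and Ndufs3 have lower medians in dendrites (306 against 519 and 107 against 273 CPM), Ndufb11 a higher one (296 against 177), and Ndufa4 nearly the same (974 against 929).

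Core genes also took up a smaller share of the complex I counts in most dendrite samples. The 6 core genes gave 16.5 ± 6.2% of the complex I counts in soma, from 4.36% in neuron 20 over a median of 18.0% to 24.3% in neuron 15. In dendrites they gave 11.8 ± 7.7%, from 0.751% in neuron 14 over a median of 11.6% to 31.3% in neuron 18 (SD, n = 16 each). The groups overlapped, but within neurons the share was lower in dendrites in 14 of 16, all but neurons 13 and 18, with a mean difference of -4.66 ± 5.99 percentage points (SD). This measure was formed after the single-gene values were seen and carries no test. It rested on Ndufv2 and Ndufs3: the difference was -1.42 points without Ndufv2 (lower in 11 of 16), -2.86 without Ndufs3 (10 of 16) and 0.67 without both (6 of 16). It was -4.38 without neurons 7, 8 and 9, -4.78 without neurons 20 and 25, and -3.64 without neuron 14. With Ndufa4 left out of the complex I counts it was -5.76 (lower in 13 of 16). With libraries thinned to equal depth, which leaves out neuron 25, it was -4.48 (lower in 13 of 15), against -4.54 at full depth without that neuron. Random thinning leaves the expected share unchanged, so this value cannot tell whether depth played a part. Depth moved with the share among dendrites: across the 16 dendrite libraries its Spearman correlation with the gene counts was 0.67, against 0.39 across soma libraries, given as descriptions. With the summed astrocyte markers listed above, which were higher in dendrites in 11 of 16 neurons, the correlation of the share was -0.42 across dendrite and -0.08 across soma libraries. Accessory genes of the matrix arm gave 15.9 ± 4.5% in soma and 16.7 ± 6.0% in dendrites, those of the membrane arm 53.0 ± 11.7% and 57.4 ± 6.7%, and Ndufa4 14.7 ± 8.0% and 14.1 ± 6.5%.

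**Figure D5:**
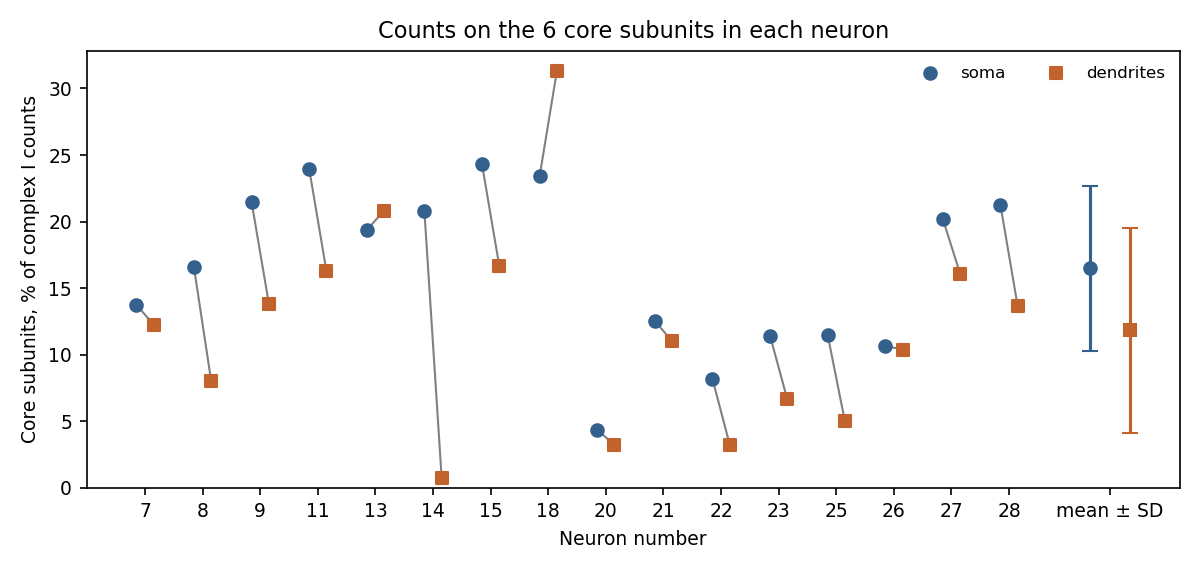
Share of complex I counts from the 6 core genes (percent, vertical axis) in the soma and dendrites of each neuron, joined by lines, with the mean ± SD of 16 neurons. The share is lower in dendrites in 14 of 16 neurons, and the soma and dendrite ranges overlap.

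Among the 9 accessory genes of the matrix arm, 4 fold changes were positive and 5 negative. Ndufa5, an accessory subunit next to the ubiquinone-binding part, ran from 5.11 over a median of 231 to 873 CPM in soma and from 2.80 over 187 to 1063 CPM in dendrites. Both maxima were in neuron 21, and the log2 fold change was -0.26 ± 0.75. Ndufs4, whose loss in mice and humans causes a Leigh-like encephalopathy, ran from 2.47 over 102 to 985 CPM in soma and from 0.353 over 174 to 593 CPM in dendrites. It was under 4 CPM in the soma of neurons 11, 21 and 28 and under 1 CPM in the dendrites of neurons 14 and 21, and its log2 fold change was 0.04 ± 1.02. Ndufa6, a small protein of the LYR family that holds an acyl carrier protein, ran from 34.5 over 141 to 671 CPM in soma and from 6.54 over 119 to 952 CPM in dendrites, at -0.24 ± 0.77.

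Ndufv3, a small subunit at the NADH-binding end, had the fourth smallest p. It was at 0 in the soma of neuron 28 and the dendrites of neuron 20, with medians of 25.8 and 13.7 CPM and maxima of 83.9 and 63.5 CPM. Dendrites were higher in 5 of 16 neurons, and the log2 fold change was -1.39 ± 1.17 (unadjusted p = 0.245, edgeR adjusted p = 0.999). Ndufa12, which is related to the assembly factor Ndufaf2, was low throughout, with medians of 4.88 and 6.35 CPM and maxima of 30.8 and 24.4 CPM, and was at 0 in 4 libraries (the soma of neurons 22 and 28, the dendrites of neurons 14 and 22). Its log2 fold change was 0.35 ± 1.18. The other 4 genes of this group (Ndufa2, Ndufa7, Ndufa9 and Ndufs6) had soma medians between 38.7 and 178 CPM and dendrite medians between 45.4 and 110 CPM, and the largest fold change in size among them was 1.12 ± 1.04 for Ndufa9.

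The accessory genes of the membrane arm had 10 positive and 6 negative fold changes, with a median of 0.37. Ndufb3, a small subunit with a membrane-spanning helix, had the highest mean level of the 32 genes, per library and not per length. It ran from 77.3 CPM in neuron 21 over a median of 1038 to 3685 CPM in neuron 20 in soma. In dendrites it ran from 0 in neuron 14 over 742 to 3593 CPM in neuron 8, with 3502 CPM in neuron 20. Neuron 20 alone was among the 3 highest in both compartments, and the log2 fold change was -0.31 ± 0.74. Ndufc2, a membrane subunit, ran from 0 over 434 to 1296 CPM in soma and from 14.2 over 406 to 904 CPM in dendrites, at 0.29 ± 0.87. Neuron 28 was low in both, with 0.378 and 27.2 CPM.

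Ndufb9, another LYR protein with its own acyl carrier protein, ran from 0 over a median of 213 to 1138 CPM in soma and from 4.88 over 344 to 1017 CPM in dendrites. Neuron 20 was the lowest in both compartments, dendrites were higher in 10 of 16 neurons, and the log2 fold change was 0.76 ± 0.79. Ndufb11, an X-linked gene for a small membrane-spanning subunit, ran in soma from 0.120 CPM in neuron 27 over 177 to 676 CPM in neuron 11. In dendrites it ran from 5.76 CPM in neuron 15 over 296 to 697 CPM in neuron 28. It was higher in dendrites in 10 of 16 neurons, with overlapping groups, at 0.93 ± 0.77 (unadjusted p = 0.236, edgeR adjusted p = 0.999). The other 12 genes of this arm had soma medians from 3.44 CPM (Ndufa1) to 218 CPM (Ndufb2) and dendrite medians from 6.18 CPM (Ndufa1) to 294 CPM (Ndufb8). Among those, the fold changes ran from -0.93 ± 1.2 for Ndufb10 to 1.00 ± 0.96 for Ndufa8. The highest single value of Ndufb10 was 1097 CPM in the dendrites of neuron 7, where the next highest dendrite sample had 207 CPM.

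Ndufa4 had the smallest SE of the 32 genes. It ran from 277 CPM in neuron 26 over a median of 929 to 2160 CPM in neuron 21 in soma, and from 201 CPM in neuron 20 over 974 to 2088 CPM in neuron 14 in dendrites. No library was near 0. The groups overlapped nearly fully, and the log2 fold change was -0.05 ± 0.40. Dendrites were higher in 7 of 16 neurons by CPM and in 10 of 16 after TMM scaling.

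By the labelled pairs, neurons with a high level of a gene in soma were not in general those with a high level in dendrites. These values rest on the pairing as labelled. Over all genes tested, 9 of 16 somata and 11 of 16 dendrite samples correlated most with a sample of another neuron. Across the 16 neurons, the Spearman correlation of a gene's soma level with its dendrite level had a median of 0.07 over the 32 genes and of 0.08 over all genes tested, as descriptions over points that differ in depth. Ndufv2 stood highest at 0.64 and Ndufa2 lowest at -0.66. For Ndufv2, neurons 20, 22 and 23 were among the 5 lowest and neurons 13, 15 and 18 among the 5 highest in both compartments.

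Other genes of the respiratory chain served as a setting for these values, by counts of fold changes and medians. Ndufab1, the mitochondrial acyl carrier protein and a complex I subunit outside the list, had a log2 fold change of -0.28 ± 0.65. Complex I assembly factors had 10 tested genes, 7 positive and 3 negative, with a median of 0.39. Among them Ndufaf3 had the smallest p, at -2.12 ± 1.35. Complex II had 4 tested genes with a median of 0.39, and its membrane anchor Sdhd had -1.12 ± 0.87. Complex III had 9 with a median of 0.17, and Uqcrfs1, its Rieske iron-sulfur protein, had -1.47 ± 0.76.

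Complex IV had 10 tested genes, 9 positive and 1 negative, with a median of 0.54, and Cox7c had 0.62 ± 0.39. Complex V, the ATP synthase, had 15, 9 positive and 6 negative, with a median of 0.01. Its subunit Atp5i had the only unadjusted p under 0.05 among all these lists, at 1.07 ± 0.52 (unadjusted p = 0.0488, edgeR adjusted p = 0.999). Of 5 regulators of mitochondrial biogenesis 2 could be tested, and Esrra, a nuclear receptor, had 0.16 ± 1.31. In each list 0 genes passed an adjusted p of 0.05 with edgeR, as for all 4916 genes. The complex I median of 0.01 lay with that of complex V, below the median of 0.13 over all genes tested, and no difference between lists was tested.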

How the data were processed

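Each library came as a deposited file of raw counts for 17308 rows. Of these, 92 rows are ERCC spike-ins, which stayed out of totals and tests. The build was rn6, per the submitters' processing notes. How reads were aligned, and how strand and multiple matches were treated, is not given in the sources used here, so reads of pseudogenes may be included. CPM is the count over the gene total of the library. For single genes, the number of neurons higher in dendrites goes by CPM unless stated. Fold changes use TMM, so their direction can differ from that number. Genes that passed filterByExpr (minimum count 10; 4916 genes, all 32 members) were fitted in R 4.3.3 with edgeR 4.0.16 (TMM, glmQLFit robust, glmQLFTest, neuron as block) and adjusted by the Benjamini-Hochberg method. The SE is the size of the log2 fold change divided by the root of the F statistic. Alternatives used DESeq2 1.42.0 and limma 3.58.1. Code was tested on simulated data. The members, gene lists and tests were chosen with earlier results of these data known. Named with full values were the 6 core genes, Ndufa4, the 3 accessory genes per arm with the highest mean CPM, the 4 genes with the smallest p and the 3 most often at 0; of each other list, the gene with the smallest p. The rule also named 1 gene that is not reported here. The series text states that equal numbers mark 1 cell: centred profiles of same-numbered samples had a mean Spearman correlation of 0.068, against -0.00054 for others, and 4 of 16 exceeded 0.1. No libraries of a compartment agreed within sampling noise (smallest chi-square per degree of freedom 268 and 54.7).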

Additional observations from a re-analysis of the deposited data

How the results depend on the processing

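The count of complex I genes called was 0 under every alternative run. Over all genes, DESeq2 called 403 and the fit without a filter on low counts called 1, against 0. The median log2 fold change of the complex I genes was 0.01, 0.17 with no replicate block, and between -0.08 and 0.24 when 1 neuron was left out; the other alternatives gave -0.02 to 0.10. The block changed no call. Among the genes named, signs turned only for those whose fold change was smaller than its SE, and the cause was not tested. With no replicate block these were Ndufs7 (0.40), Ndufa6 (0.63), Ndufb3 (0.84), Ndufc2 (-0.22), Ndufa12 (-0.053) and Ndufab1 (1.42). With DESeq2 size factors they were Ndufs7 (0.014) and Ndufa4 (0.018), and with the DESeq2 Wald test Ndufa4 (0.018). With limma-voom they were Ndufs7 (0.40) and Ndufb3 (0.0087). With the sign-flip differences they were Ndufs7 (0.31), Ndufs4 (-0.13), Ndufa12 (-0.011) and Ndufab1 (0.029). Without neurons 20 and 25 they were Ndufs7 (0.22), Ndufv1 (0.36), Ndufa4 (0.052), Ndufa5 (0.058) and Ndufs4 (-0.29), and without neurons 7, 8 and 9 Ndufv1 (0.075). Leaving out 1 neuron at a time gave -0.38 to 0.33 for Ndufs7, -0.57 to 0.27 for Ndufv1, -0.25 to 0.16 for Ndufa4, -0.55 to 0.014 for Ndufa5, -0.27 to 0.35 for Ndufs4 and -0.28 to 0.64 for Esrra. Depth limits the genes at low counts, and in the shallowest dendrite library, of neuron 25, the limit set for a count of 0 is 13.1 CPM. The share of core genes, the alternatives to it and the added minima for detected genes were chosen after seeing the data.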

Other observations

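A row named LOC100911483 carries the gene ID that RefSeq (GRCr8) gives to Ndufa13, a membrane-arm accessory subunit also known as GRIM-19, and was kept out of the 32 genes because its symbol differs. It had 10 or more counts in 16 of 16 soma and 16 of 16 dendrite libraries. Its level ran from 1.66 over a median of 75.9 to 218 CPM in soma and from 4.18 over 77.2 to 449 CPM in dendrites, with overlapping groups.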
